A study of Homo sapiens with 12 samples.

Results

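The transcriptional interaction of DAC (decitabine) with ATRA (all-trans retinoic acid) was measured in U937 cells as a factorial contrast over 12 of the 12 RNA-seq libraries of the series. U937 is an established human AML cell line of myelomonocytic type, so that all values describe a single line. The 4 groups of 3 libraries were untreated cells, cells given 200 nM DAC, cells given 1 µM ATRA, and cells given 200 nM DAC together with 1 µM ATRA (DAC + ATRA). All groups shared, per the labels, a medium with 20% FCS and 5 ng/ml GM-CSF that was replaced daily over 3 days of treatment. The labels give 96 h for the untreated cells and a harvest at 72 h for the series, and the methods of the study start ATRA later than the labels do, so that the exact times of the groups are uncertain. The methods also give a different serum content from the labels. The libraries are described as technical triplicates, and a p-value given here measures only the spread between these libraries. The contrast was (DAC + ATRA minus ATRA) minus (DAC minus untreated) on log2(normalized read count + 1). It is 0 when the fold changes of the single agents multiply in the combination, positive when the combination exceeds their product and negative when it falls short of it.

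Decitabine is a nucleoside drug that enters DNA in place of deoxycytidine and binds DNA methyltransferases covalently. Dividing cells then lose methylation, and genes it had silenced, among them germline genes and genes of the interferon response, can be transcribed. ATRA binds the retinoic acid receptors, which sit with RXR on direct repeats in DNA and turn from repressors into activators when the ligand is bound. In myeloid leukemia cells ATRA is known for inducing granulocytic and monocytic differentiation genes and the enzymes that degrade ATRA itself.

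Between 8042435 and 10683593 reads were counted per library on transcripts, and 3 reads corresponded to 2.50 to 3.71 normalized reads. Of 10 myelomonocytic identity genes, 7 had a mean of at least 10 normalized reads in a group, with MPO between 14973 and 52120 and CD4 between 3720 and 4462 in the group means, whereas CD33, CSF1R and CD68 were at or near 0 in all groups. Values are per transcript, and a low one does not show that a gene is silent, since the transcript of B2M, which nearly all cells express, had group means of only 9.10 to 21.0. Of 22 erythroid and megakaryocytic markers, 12, including the adult globins, had no read in any library. The summed level of this list was 154 in untreated cells, 609 with DAC, 144 with ATRA and 399 with both agents, and that of 15 lymphoid markers was 527, 1306, 663 and 1904, mostly from CD79A, PAX5 and CD2, with CD3E and CD79B at 0. In bulk RNA, fewer cells of a type and less RNA per cell cannot be told apart. The part of these changes in the results below was not tested.

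Over 9016 protein-coding transcripts of 7622 gene symbols, 151 showed less and 71 more than the product of the single-agent fold changes (limma, Benjamini-Hochberg adjusted p under 0.01), which are 1.67% and 0.787% of the transcripts tested. Per gene symbol, with the transcript of the highest mean, 148 (1.94%) were negative and 66 (0.866%) positive. Leaving out 1 library moved the negative count past 1.5 times only for ATRA library 9 (388), DAC + ATRA library 10 (90) and DAC + ATRA library 12 (98). The median interaction of all tested transcripts was -0.06 on the log2 scale, with quartiles of -0.35 and 0.21. The negative calls had a median size of 1.38 (0.59 to 4.25) and the positive calls 2.32 (0.63 to 6.73). Of 6611 transcripts with a mean of at least 10 normalized reads in all groups, 106 were negative and 32 positive, and of 2405 with a lower mean in a group, 45 and 39. The effect of DAC without ATRA and its effect on top of ATRA, which share no library, had a Pearson's r of 0.907 and a Spearman's rho of 0.831 over 9016 transcripts, and transcripts are no independent replicates. For the effect of ATRA without and with DAC these values were 0.544 and 0.405.

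**Figure D1:**
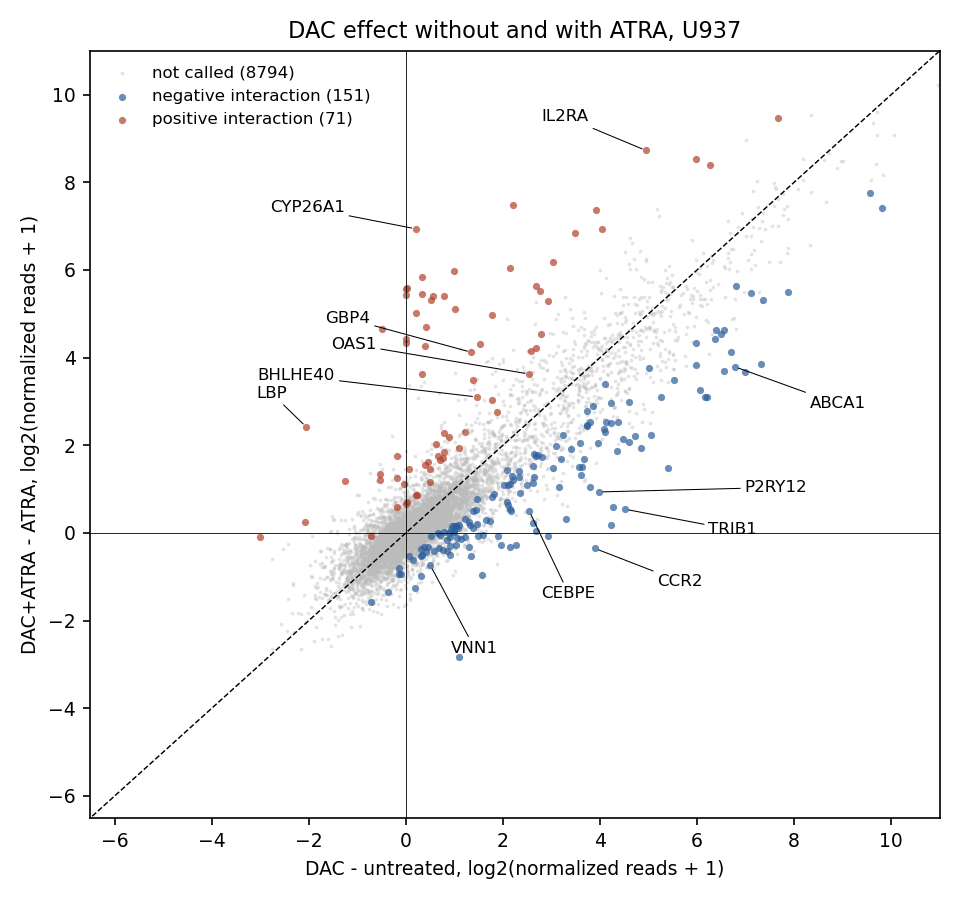
Each point is a protein-coding transcript, with its DAC effect in the absence of ATRA on the x axis and in its presence on the y axis, both as differences of log2(normalized reads + 1). Points on the dashed line have no interaction; the 151 negative calls lie below it and the 71 positive calls above it.

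The negative interactions were mostly genes that each agent raised alone. Of the 151, 97 were upregulated by both DAC and ATRA. DAC raised 41 more, of which ATRA left 35 without a call and lowered 6, and ATRA raised 7 that had no call with DAC. Of all transcripts tested, DAC alone raised 30.6% and lowered 8.7%, and ATRA alone raised 6.47% and lowered 2.67%. Of the 71 positive interactions, 32 were upregulated by DAC with no call for ATRA, 27 had no call for either agent, and 1 was upregulated by both. Over all 9016 transcripts, 414 were raised by both agents, of which 97 are 23.4%, 2275 by DAC with no call for ATRA, and 5216 had no single-agent call, of which the 27 positive ones are 0.518%, below the 0.787% of all transcripts. Single-agent effects and the interaction use the same untreated libraries, so that these classes describe the called transcripts and were not tested. A shift of the untreated libraries alone, labelled 96 h against 72 h, would move both single-agent effects one way and the interaction the other. It cannot be told apart from a treatment effect in this design. Most of the negative transcripts were still above untreated cells with both agents. Of the 151, 117 passed the threshold as higher in the combination than without treatment, and 13 as lower, against 32.6% and 14.2% of all transcripts tested. An agent's effect often did not pass the threshold on top of the other, however, which selection for a negative interaction favours by itself. The counts that follow are not set against all transcripts. Of 104 negative transcripts raised by ATRA alone, 56 had no called effect of ATRA on top of DAC and 4 were lowered, and of 138 raised by DAC alone, 51 had no called effect of DAC on top of ATRA and 5 were lowered. The combination mean lay above both single-agent means for 58 of the 151, between them for 65 and below both for 28. Selection for a negative interaction bears on these positions too. Over all 151, the combination mean was a median of 0.797 times the higher single-agent mean (quartiles 0.567 and 1.28), and over the 97 raised by both agents 1.13 times (quartiles 0.808 and 1.71). On the linear scale, the rise with both agents was larger than both single rises added together for 41 of the 151 negative and 70 of the 71 positive interactions. Both sets were picked by the sign of the interaction in the same libraries, which favours such an outcome for the positive ones.

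**Figure D2:**
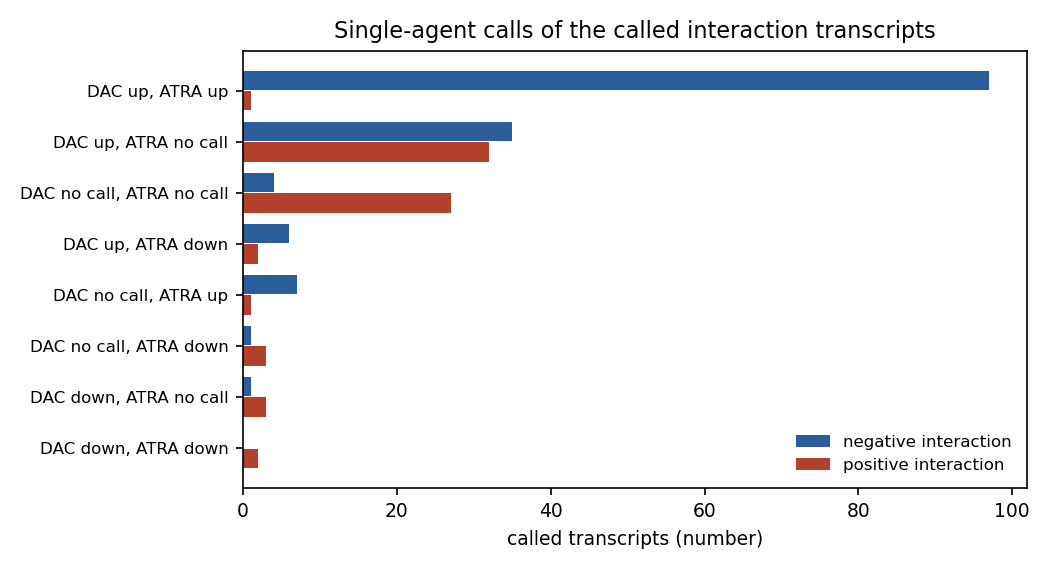
Bars give the number of called transcripts by what each agent did alone (up, down or no call against untreated cells). Transcripts raised by both agents hold 97 negative and 1 positive interaction, and those without a single-agent call 4 and 27.

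Regulators of myeloid differentiation were among the largest negative interactions. TRIB1 encodes a pseudokinase that brings C/EBPα to degradation, on chromosome 8 (125430358 to 125438403, plus strand, hg38). Its normalized reads were 36.8, 34.6 and 29.6 in untreated cells, 698, 850.5 and 819.7 with DAC, 423, 407 and 345 with ATRA, and 535, 601 and 571 with DAC + ATRA. The libraries of all 4 groups were apart from each other, and the combination lay between the single agents. A 22.8-fold rise with DAC and an 11.3-fold rise with ATRA multiply to 259-fold, whereas the observed rise was 16.5-fold (interaction -3.97, SE 0.18, limma adjusted p = 1.79e-11). CEBPE, a C/EBP factor of granulocytic maturation (chromosome 14, 23117306 to 23119255, minus strand), had 276, 266 and 227 normalized reads untreated, 1513, 1297 and 1682 with DAC, 1329.5, 1333 and 951 with ATRA, and 1606, 1856 and 1618 with both. The combination libraries overlapped those with DAC alone, and the interaction was -2.03 (SE 0.19, limma adjusted p = 1.38e-06). TRIB2, a relative of TRIB1, rose from 90.8 ± 13.1 (SD, n = 3 libraries here and below) to 407 ± 58.7 with DAC, 720.4 ± 184 with ATRA and 1026 ± 81.7 with both (interaction -1.61, SE 0.24, limma adjusted p = 0.000226). TRIB1, TRIB2 and CEBPE were the 3 calls by limma among 23 genes tested from the list of hematopoietic transcription factors, which had 0 positive calls, and the TRIB genes are not transcription factors themselves. The list's median interaction was -0.47 against -0.07 for all 7622 symbols, and 17 of the 23 were below 0. Of all 7622 symbols, 4357 were below 0 and 148 (1.94%) were negative calls. CEBPA (-0.86, SE 0.23, limma adjusted p = 0.0343) and CEBPB (-0.84, SE 0.27, adjusted p = 0.0989) did not pass with limma, nor did SPI1 (-0.21), GATA2 (-0.48) or GFI1 (0.18). With DESeq2, CEBPA (adjusted p = 0.000281) and CEBPB (adjusted p = 0.00427) were negative too, which made 5 negative calls in the list.

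A partial list of receptors for chemokines and cytokines held 3 negative and 2 positive calls by limma of 20 tested, whereas edgeR gave 3 negative and 0 positive and DESeq2 4 and 0. CXCR5, which this list does not hold, was negative with limma (-2.54), edgeR and DESeq2. CCR2, the receptor for the monocyte chemoattractant CCL2, had the largest negative interaction of the 9016 transcripts. It had 2 reads in each untreated library, and its normalized reads were 33.5, 39.9 and 51.8 with DAC, 96.1, 85.6 and 67.4 with ATRA and 62.4, 49.5 and 85.3 with DAC + ATRA. Each agent alone thus raised CCR2 at least 15.2-fold and 30.2-fold over the 3-read limit of the untreated libraries, and the combination overlapped both single-agent groups. The fitted interaction was -4.25 (SE 0.35, limma adjusted p = 3.5e-07), and it was -3.84 with the untreated libraries set to 3 reads. IL7R, the interleukin 7 receptor chain, was 298 ± 60.9 untreated, 1905 ± 197 with DAC, 392 ± 72.1 with ATRA and 1322 ± 72.0 with both (-0.92, SE 0.20, limma adjusted p = 0.0074). Of the receptors positive with limma, CXCR1 is described further on and the other was IL2RA, the α chain of the interleukin 2 receptor (chromosome 10, 6010689 to 6062367, minus strand). Its normalized reads were 1.84, 0 and 0.924 in untreated cells, 50.8, 56.5 and 52.8 with DAC, 1.06, 3.64 and 4.99 with ATRA, and 1469, 1765 and 1666 with DAC + ATRA. The combination was at least 593-fold above the untreated limit, against at least 19.4-fold with DAC, and the fitted interaction was 3.78 (SE 0.51, limma adjusted p = 0.000109). With edgeR (3.25, adjusted p = 0.101) and DESeq2 (3.10, adjusted p = 0.0185) on the recovered reads IL2RA did not pass.

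The P2Y receptors for nucleotides P2RY12, P2RY13 and P2RY14, which lie together on chromosome 3 within the MED12L locus, all had negative interactions. P2RY12 had 10.1, 4.55 and 9.24 normalized reads in untreated cells, 129, 163 and 114 with DAC, 30.6, 21.8 and 24.1 with ATRA, and 41.6, 51.6 and 55.6 with DAC + ATRA. The combination was thus below every DAC library and above every ATRA library (interaction -3.04, SE 0.37, limma adjusted p = 2.25e-05). For P2RY13 the interaction was -2.39 (SE 0.30) and for P2RY14 -1.98 (SE 0.33), with combination means of 131 ± 15.0 and 169 ± 8.87 against 90.4 ± 10.4 and 168 ± 38.7 with DAC. IGSF10, 51450 bp from P2RY12, was also negative (-0.75). MED12L, which overlaps them on the other strand, was not called (0.07). The libraries kept strand per the methods of the study, but how the counting treated it is not given in the sources used here.

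Several effector genes of differentiated myeloid cells were highest with the combination and still fell short of the product. S100A9, a calcium-binding protein abundant in neutrophils and monocytes (chromosome 1, 153357854 to 153361023, plus strand), had 80.9, 84.7 and 74.8 normalized reads untreated, 929, 1183 and 1156 with DAC, 1116, 1021 and 784 with ATRA, and 4816, 5269 and 5622 with both. Every combination library exceeded every single-agent library. The observed rise was 64.5-fold and the product 159-fold (interaction -1.30, SE 0.18, limma adjusted p = 0.000109), whereas in reads the combination exceeded the sum of the single rises by 3252 ± 266 (SE). The integrin chain ITGAM (CD11b) rose 13.4-fold against a product of 20.9 (-0.63, SE 0.14, limma adjusted p = 0.00819), and ITGAX (CD11c), 22297 bp away on chromosome 16, 13.6-fold against 43.3 (-1.67, SE 0.32, adjusted p = 0.00256). The counted ITGAX transcript is short (31355174 to 31358455) and had 6.72 ± 1.36 normalized reads untreated. Its product thus rests on few reads, and its values may not describe the whole gene. CYBB, the membrane subunit of the phagocyte NADPH oxidase, was 224 ± 23.1 untreated, 2993 ± 441 with DAC, 654 ± 34.9 with ATRA and 4530.3 ± 46.1 with both (-0.94, SE 0.15, limma adjusted p = 0.000649). It was the only call of 5 oxidase genes tested. Of 23 myeloid surface markers, 2 were negative and 1, the costimulatory ligand CD80, positive by limma, against 4 and 0 with edgeR and 5 and 0 with DESeq2. Of 10 tested members of a partial list of granule genes S100A9 was the only limma call, and DESeq2 made 2. EPX, which this list does not hold, was negative with limma, edgeR (-3.08, adjusted p = 4.19e-06) and DESeq2. LYZ (0.35, SE 0.22, limma adjusted p = 0.442) and MPO (-0.13, adjusted p = 0.805) of the granule list had no called interaction. Of 14 tested members of a partial list of chemokines and cytokines, which does not hold XCL1, XCL2 or CCL1, 2 were negative and 0 positive by limma, and 3 and 0 with DESeq2. CCL1 was negative with limma, edgeR and DESeq2. The inflammatory cytokine IL1B reached 593 ± 34.4 with both, against 317 ± 10.9 with DAC and 249 ± 54.9 with ATRA (-1.06, SE 0.21, adjusted p = 0.00392). OSM, which encodes oncostatin M, reached 121 ± 3.34, below 162 ± 9.58 with DAC alone (-1.42, SE 0.29, limma adjusted p = 0.0043).

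ABCA1, the exporter of cholesterol to lipoproteins, was the most strongly induced of the named negative genes. Its normalized reads were 1.84, 3.64 and 7.39 untreated, 735, 367 and 534 with DAC, 290.4, 223 and 269 with ATRA, and 3124, 3493 and 4281 with DAC + ATRA. The combination was far above each single agent, at 751-fold over untreated cells against a product of 5936-fold that rests on few untreated reads (interaction -2.98, SE 0.46, limma adjusted p = 0.0016). ABCA1 missed the threshold with edgeR (adjusted p = 0.0231) and passed it with DESeq2 (adjusted p = 1.06e-06). Among 17 tested genes of cholesterol and lipid synthesis it was the only call by limma with the deposited scaling. With edgeR and DESeq2, STARD4, a sterol carrier (edgeR 1.00, adjusted p = 0.00532), and SQLE, squalene epoxidase of cholesterol synthesis (edgeR 0.72, adjusted p = 0.00145), were positive.

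**Figure D3:**
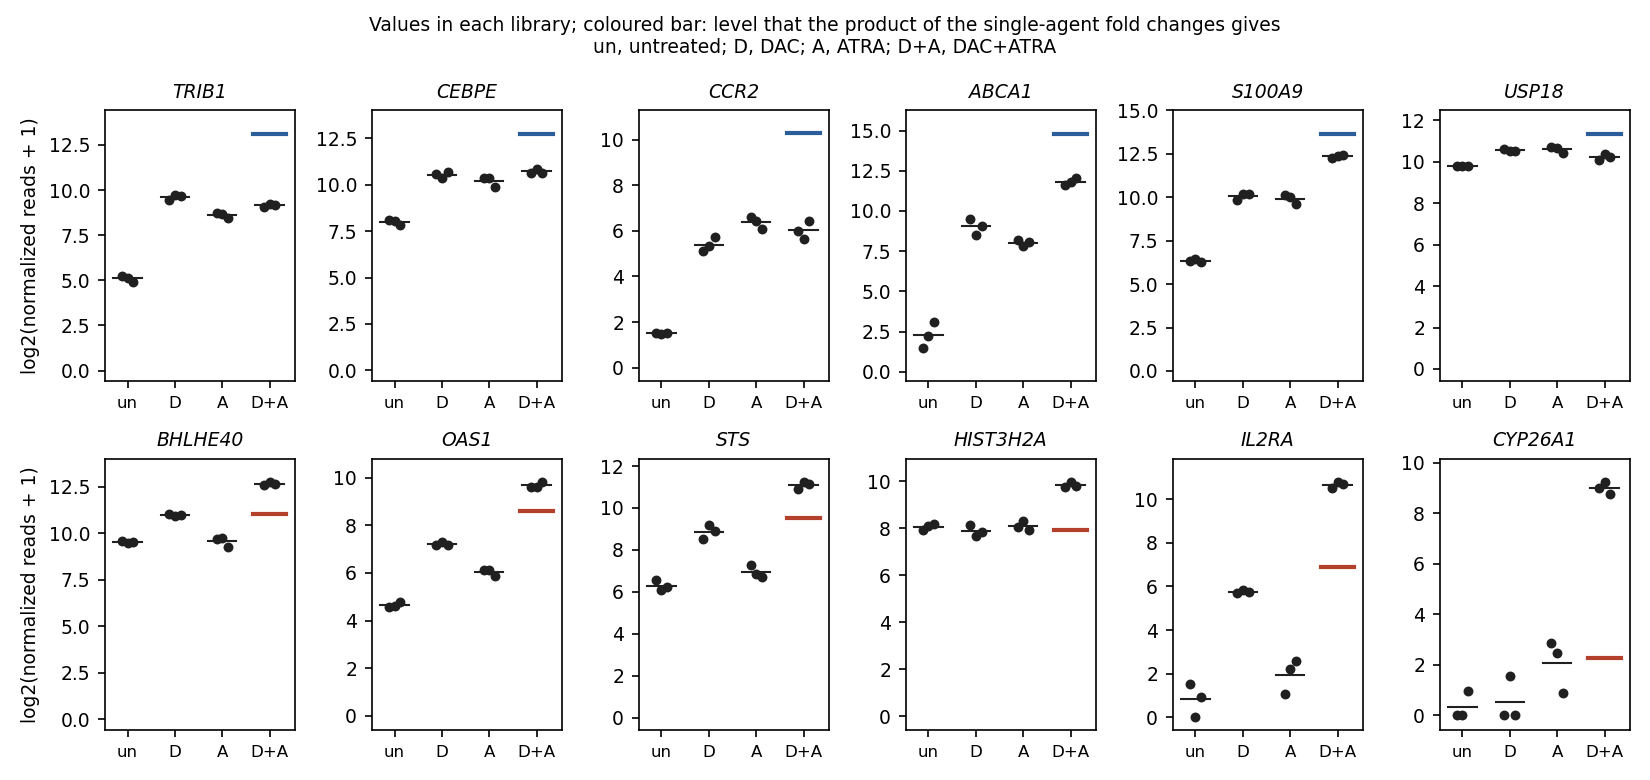
Points are the 3 libraries of each group as log2(normalized reads + 1), black bars their means, and the coloured bar the level at which the single-agent fold changes would multiply (blue for negative, red for positive interactions). The combination sits below the coloured bar for TRIB1, CEBPE, CCR2, ABCA1, S100A9 and USP18 and above it for BHLHE40, OAS1, STS, HIST3H2A, IL2RA and CYP26A1.

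Of the p53 target and BCL2 lists, 3 members had negative calls, although the medians of both lists were above 0. BTG2, an antiproliferative target of p53, rose to 1314 ± 96.3 with DAC, 361 ± 23.6 with ATRA and 1700.0 ± 75.5 with both from 138 ± 14.5 (interaction -1.01, SE 0.15, limma adjusted p = 0.000288). CCNG2, an unconventional cyclin linked to cell cycle arrest, was 382 ± 71.6 untreated, 889 ± 158 with DAC, 529 ± 45.5 with ATRA and 491 ± 13.2 with both, so that a 2.33-fold rise with DAC alone stood against no called effect of DAC on top of ATRA (-1.32, SE 0.20, adjusted p = 0.000231). They were the 2 limma calls among 13 p53 target genes tested, whose median interaction was 0.26. SESN2, a stress-induced inhibitor of mTORC1 signalling, was positive with edgeR (0.65, adjusted p = 0.00194) and DESeq2 (0.61, adjusted p = 0.000679), and the list held 1 positive call under each of the 5 other scalings or tools. BIK, a BH3-only inducer of apoptosis, was 187 ± 32.7 untreated, 817 ± 187 with DAC, 672 ± 114 with ATRA and 1043 ± 47.7 with both, and it was the only call of 10 BCL2 and death receptor genes, whose median was 0.14 (-1.46, SE 0.22, adjusted p = 0.000359).

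Further large negative interactions came from genes of other functions, named for their size. RASD2, a small GTPase, was 141 ± 16.3 untreated, 550.0 ± 74.9 with DAC, 15843 ± 3526 with ATRA and 12856 ± 438 with both, and on top of ATRA the level with DAC was 0.826 times that without it (-2.23, SE 0.20, limma adjusted p = 1.51e-06). SETBP1, which encodes a binding partner of the PP2A inhibitor SET (-2.47, SE 0.27), and HNRNPLL, a splicing regulator of lymphocytes (-1.85, SE 0.26), also had a lower mean with DAC + ATRA than with ATRA alone. The angiopoietin ANGPT4 was at 319 ± 89.0 with DAC, 289.9 ± 24.7 with ATRA and 358 ± 25.3 with both, from 30.6 ± 2.49 (-2.99, SE 0.24). The receptor PDGFRB (-1.91, SE 0.33) and the lymphocyte receptor SLAMF1 (-1.72, SE 0.23) were highest in the combination, and the chemokine XCL1 (-2.10, SE 0.39) fell from 105 ± 16.8 with DAC to 27.4 ± 9.81 with both. Reads of XCL1 and its near-identical neighbour XCL2, also negative with limma (-1.76) but not with edgeR or DESeq2, may be shared between them. Among genes with few reads, GPR82, an orphan receptor, had -4.05 (-2.45 with untreated at 3 reads) and PSAPL1 -3.94 (-2.53), the latter with 22.6 ± 9.67 normalized reads with ATRA and 3.05 ± 2.67 with both. PSAPL1 was not called with edgeR (adjusted p = 0.0636) or DESeq2, which gave no adjusted p.

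Genes that exceeded the product were led, among those with at least 10 normalized reads in all groups, by SPTBN5, HIST3H2A, MN1, NINL and BHLHE40. All 32 positive interactions at this level were also called with edgeR and with DESeq2. BHLHE40 encodes a basic helix-loop-helix repressor of the clock and of stress responses (chromosome 3, 4979437 to 4985323, plus strand). Its normalized reads were 756, 718 and 726 untreated, 2101, 1939.6 and 2006 with DAC, 809.9, 858 and 619 with ATRA, and 6193, 6822 and 6476 with DAC + ATRA. ATRA alone overlapped the untreated libraries, whereas on top of DAC it raised the gene 3.22-fold. The observed rise was 8.84-fold against a product of 2.83 (interaction 1.65, SE 0.15, limma adjusted p = 1.38e-06). STS, the steroid sulfatase of the X chromosome, rose from 78.0 ± 13.5 to 475 ± 112 with DAC, 125 ± 27.0 with ATRA and 2192 ± 233 with both (1.56, SE 0.25, adjusted p = 0.00057). DUSP5, a nuclear phosphatase of ERK, was 201 ± 28.6 untreated, 1307 ± 288 with DAC, 132 ± 36.5 with ATRA and 2416 ± 346 with both (1.53, SE 0.27, limma adjusted p = 0.00193). DUSP5 and IER5 (0.95, SE 0.17) were the calls by limma among 18 AP-1, EGR and immediate early genes, whose median was -0.25. RGS16, a brake on G protein signalling, had the same shape, with 0.748-fold under ATRA, 3.42-fold under DAC and 6.11-fold under both (1.26, SE 0.22).

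Several positive genes had no called single-agent effect. HIST3H2A, a histone H2A gene, had 242, 270.4 and 285 normalized reads untreated, 283, 204 and 225 with DAC, 261, 311 and 244 with ATRA, and 862, 994 and 886 with both. The untreated, DAC and ATRA libraries overlapped and the combination stood apart, 3.43-fold above untreated cells (interaction 1.92, SE 0.19, limma adjusted p = 2.17e-06). It was the only call of 47 histone genes tested, whose median was 0.11. LZIC, a small protein related to the β-catenin inhibitor ICAT (1.43, SE 0.18), the sulfotransferase SULT1B1 (1.39, SE 0.26), the centrosomal protein NINL (1.75, SE 0.27) and MN1, a transcriptional coactivator rearranged in myeloid leukemia (1.88, SE 0.36), likewise had no called single-agent effect, with changes between 0.688 and 1.16-fold, and were 2.34 to 2.70-fold above untreated cells with DAC + ATRA. The spectrin SPTBN5 (12.8-fold against a product of 2.98), the sugar transporter SLC45A4 (3.99 against 1.52) and the matrix protein CILP (7.40 against 2.66) completed the 12 largest.

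Interferon-related genes lay on both sides. Of 25 interferon-stimulated effectors tested, 21 passed the threshold as raised by the combination (35.1% of all symbols were raised and 14.7% lowered), 2 had a positive and 2 a negative interaction, and the median was 0.11. OAS1, which makes the activator of RNase L (chromosome 12, 112906962 to 112919892, plus strand), had 23.0, 23.7 and 26.8 normalized reads untreated, 142, 155 and 144 with DAC, 68.6, 69.2 and 57.4 with ATRA, and 778, 767 and 895 with both. The groups did not overlap, and the 31.9-fold rise exceeded the product of 15.1 (interaction 1.08, SE 0.20, limma adjusted p = 0.00193). XAF1, a proapoptotic interferon target, rose 4.96-fold against 2.78 (0.83, SE 0.16, adjusted p = 0.00327), and the kinase JAK2, the only limma call of 16 interferon signalling factors, 1.98-fold against 1.29 (0.63, SE 0.14, adjusted p = 0.00851). DESeq2 also called STAT3, a signal transducer of cytokine receptors, as negative (-0.39, adjusted p = 0.00257). USP18, which removes ISG15 from proteins and restrains interferon receptor signalling, went the other way, with 881, 887 and 877 normalized reads untreated, 1552, 1443 and 1490.0 with DAC, 1695, 1627 and 1353 with ATRA, and 1069, 1308 and 1202 with both. All combination libraries of USP18 lay below all single-agent libraries and above the untreated ones (-1.14, SE 0.15, limma adjusted p = 4.58e-05). IFIT5, an RNA-binding antiviral protein, was highest with both at 1701 ± 211 against 951 ± 84.0 with DAC and 229 ± 25.1 with ATRA, below the product (-0.97, SE 0.19, adjusted p = 0.00262). OAS2 (-0.12), OAS3 (0.34), RSAD2 (0.66), MX2 (0.01) and EIF2AK2 (0.02) were not called with limma, nor were the 8 nucleic acid sensors or the 7 MHC class I genes tested. With DESeq2, OAS3 passed as well (0.39, adjusted p = 0.00846). GBP4, a guanylate-binding protein induced by interferon γ, had 0, 2.73 and 0 normalized reads untreated, 2.16, 2.92 and 3.98 with DAC, 8.45, 13.7 and 9.16 with ATRA, and 174, 179 and 235 with DAC + ATRA. The combination stood at least 71.1-fold above the untreated limit, and the interaction was 2.77 (SE 0.61, limma adjusted p = 0.00853). It missed the threshold with edgeR (adjusted p = 0.25) and DESeq2 (0.112). GBP1 (1.85, adjusted p = 0.157) and GBP5 (0.60, adjusted p = 0.0137), the other guanylate-binding proteins tested, did not pass with limma. GBP5 passed with edgeR (adjusted p = 0.00294) and DESeq2 (adjusted p = 0.000419).

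GBP4 and IFIT5, which are both interferon targets with called interactions of opposite sign, carry the same type of motif at the same place, and their promoters are printed from RefSeq (GRCh38.p14), from 250 bases before the start to 10 bases from it on, 5′ to 3′ on the strand of the gene. Capitals mark matches to the ISRE core, 2 copies of GAAA separated by any 2 bases, searched on both strands. GBP4 lies on chr1:89198933-89199192 (minus strand) and IFIT5 on chr10:89414318-89414577 (plus strand).
GBP4: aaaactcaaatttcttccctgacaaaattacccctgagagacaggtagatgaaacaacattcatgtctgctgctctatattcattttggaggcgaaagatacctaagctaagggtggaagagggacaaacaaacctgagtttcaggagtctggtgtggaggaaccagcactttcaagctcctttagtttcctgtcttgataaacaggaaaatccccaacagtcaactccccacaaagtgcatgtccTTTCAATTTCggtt
IFIT5: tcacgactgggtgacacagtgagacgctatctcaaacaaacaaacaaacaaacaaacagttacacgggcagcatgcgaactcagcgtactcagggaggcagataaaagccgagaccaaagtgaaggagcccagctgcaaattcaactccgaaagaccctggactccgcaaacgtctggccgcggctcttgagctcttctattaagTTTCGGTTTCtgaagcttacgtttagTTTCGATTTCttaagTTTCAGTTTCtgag
In both genes a match runs from position -4 to 5, counted from 0 at the start site, and IFIT5 holds 2 more at -45 to -36 and -19 to -10. Of 27305 RefSeq promoters of 300 bases, 3.65% held this core, as did 2.99% of the 5853 tested symbols with an entry. Of the called genes it was found in 3 of 50 positive (GBP4, CEACAM1 and CYP26A1) and 6 of 107 negative (PDGFRB, PLXNC1, NFIX, IFIT5, TNFSF9 and CYBB). A match is a property of the letters, and binding of a factor was not analysed.

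CYP26A1, the cytochrome that degrades retinoic acid and a textbook retinoic acid target, had the largest positive interaction. Its normalized reads were 0, 0 and 0.924 in untreated cells, 0, 1.95 and 0 with DAC, 6.34, 4.55 and 0.832 with ATRA, and 516, 604 and 437 with DAC + ATRA. Under ATRA alone the gene had 6, 5 and 1 reads, and the untreated and DAC libraries had at most 2. The combination was at least 170-fold above the 3-read limit of the DAC libraries and at least 189-fold above that of the untreated ones. The fitted interaction was 6.73 (SE 0.71, limma adjusted p = 5.87e-06), which depends on the pseudocount. DESeq2 also called it (6.14, adjusted p = 0.0037) and edgeR did not (6.24, adjusted p = 0.229). A second CYP26A1 transcript was at 0 to 1.82 normalized reads in the other groups and at 24.4, 30.5 and 18.5 with both (5.14). With BHLHE40, CYP26A1 made 2 positive limma calls of 16 tested genes of retinoid targets and handling, with 0 negative, and 13 of the 16 were above 0 (median 0.20). Of all 7622 symbols, 42.8% were above 0 and 0.866% were positive calls. Other targets with a large response to ATRA alone had no called interaction. DHRS3, a retinal reductase, had a mean of 385 untreated, 4664 with ATRA and 5417 with both (0.08, SE 0.17), and CD38, an ectoenzyme, means of 496, 9402 and 7617 (0.40, SE 0.16, limma adjusted p = 0.206). The receptor RARA (0.26) and ALDH1A1, which makes retinoic acid (0.17), were not called either. HIC1, a tumor suppressor silenced by methylation in many cancers, reached 584 ± 46.0 with both from 188 ± 24.7 with ATRA, 8.14 ± 1.16 with DAC and at most 3 reads per untreated library, and its interaction was not called (0.09, SE 0.29, limma adjusted p = 0.908). Another HIC1 transcript, with 0 to 0.910 normalized reads in the other groups and 22.6, 30.5 and 19.8 with both, was called (4.33, SE 0.58), but by limma only.

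The CYP26A1 window is printed from hg38 because the counted transcript (chromosome 10, 93073893 to 93077885, plus strand) starts 418 bp downstream of the RefSeq start. It covers chr10:93073643-93073902 on the plus strand, and capitals mark a DR5, here 2 half-sites of the retinoic acid receptors (AGGTCA or AGTTCA) in the same direction with any 5 bases between them, searched on both strands and found on the strand opposite to the printed one.
CYP26A1: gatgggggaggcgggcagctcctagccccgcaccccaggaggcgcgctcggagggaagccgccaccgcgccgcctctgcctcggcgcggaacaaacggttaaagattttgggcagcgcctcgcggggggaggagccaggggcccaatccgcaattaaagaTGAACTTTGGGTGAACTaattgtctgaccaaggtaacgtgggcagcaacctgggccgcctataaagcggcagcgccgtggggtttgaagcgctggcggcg
The repeat runs from -90 to -74 relative to the start (93073803 to 93073819). Of the 27305 RefSeq promoters, of which 300 bases each were searched against the 260 printed here, 0.0183% held such a DR5, as did 0.0171% of the tested symbols with an entry and 0 of the 50 positive and 107 negative genes, whose windows do not include this site.

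Many positive interactions were transcripts with few or no reads in the other groups, which does not describe all transcripts of their genes. Of the 71, 39 had a mean under 10 normalized reads in some group, and in 13 every untreated, DAC and ATRA library had at most 3 reads. These 13, PALM, TMEM213 and SEC14L5 among them, passed the filter of at least 10 in 3 libraries only through the DAC + ATRA libraries. Their positive sign was thus set by how they entered the test and is no separate support. For these 13 the combination was at least 6.35 to 25.6-fold above the DAC limit and at least 6.92 to 27.9-fold above the ATRA limit. The counted transcript of PALM, a membrane phosphoprotein, had 0 reads in all 9 of the other libraries and 39.8, 42.1 and 60.6 normalized reads with DAC + ATRA. TMEM213, at most 1 read elsewhere, had 60.6, 69.5 and 79.1, and SEC14L5, a lipid-transfer protein, 54.2, 55.8 and 70.4. The neutrophil interleukin 8 receptor CXCR1 rose at least 22.2-fold over the untreated limit, from 3.24, 7.79 and 5.98 with DAC to 57.9, 69.5 and 55.6 with both (2.96, SE 0.56). The germline gene SPANXB1 was at 112 ± 9.19 with both and 4.99 ± 1.54 with ATRA (3.87, SE 0.62), with reads possibly shared with near-identical copies. HOXB5 had 0 reads without DAC, 78.1 ± 20.7 with DAC and 337 ± 17.1 with both (2.13, SE 0.42), whereas HOXB13 reached 452 ± 42.2 with DAC and 380.2 ± 23.5 with both (-2.37, SE 0.46, or -1.41 with untreated at 3 reads). They were the limma calls of 25 HOX genes tested, whereas edgeR called HOXB13 only, and DESeq2 called HOXB13 and, as positive, HOXB3 (1.25, adjusted p = 0.00902) but not HOXB5 (adjusted p = 0.522). CD80, a ligand for T cell costimulation, was low throughout, at 16.5 ± 1.91 with both against at most 2.68 in the other group means (3.29, SE 0.61). Of these 39 transcripts, 4 were also called with edgeR and 3 with DESeq2, and 32 by neither. For many of them, including PALM, TMEM213, SEC14L5, CXCR1 and CD80, DESeq2 gave no adjusted p, and these count as not called. Of the 45 negative calls under 10 normalized reads in a group, 29 were called with edgeR and 31 with DESeq2.

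**Figure D4:**
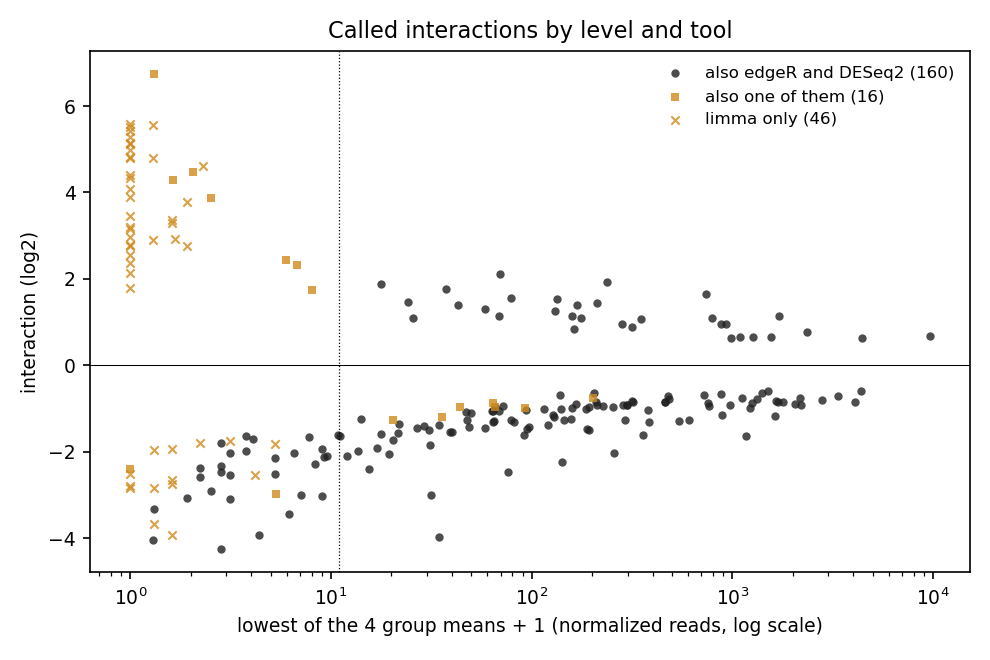
Each point is a called transcript, with the lowest of its 4 group means plus 1 on a log x axis and its interaction on the y axis; the dotted line marks a mean of 10. Of the 222 (2.46% of those tested), 160 were also called with edgeR and DESeq2, 16 with either of them and 46 with limma only, the latter all left of the line.

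For 10 transcripts, an agent's effect passed the threshold with opposite signs in the absence and presence of the other. In all tested transcripts, DAC on top of ATRA raised 25.9% and lowered 8.88%, and ATRA on top of DAC raised 6.08% and lowered 5.26%. DAC raised VNN1, a pantetheinase of myeloid cells, alone (0.50) and lowered it on top of ATRA (-0.74), and its combination libraries of 157, 159 and 151 normalized reads lay below all 9 others. USP18 (0.76 and -0.38), XYLT1, which starts glycosaminoglycan chains (0.37 and -0.33), the nuclear receptor RORB (0.41 and -0.43) and CRYBG3 (0.58 and -0.42) behaved alike. LBP, the lipopolysaccharide-binding protein, was the exception in direction, falling with DAC alone from 6.73 ± 1.05 to 1.05 ± 1.08 and rising on top of ATRA from 11.7 ± 1.48 to 67.6 ± 12.7 (4.47, SE 0.54). ATRA raised P2RY12 (1.62), COL1A1 (1.33), IQSEC3 (0.75) and CAMK2N2 (0.75) alone and lowered them on top of DAC, by -1.42, -0.73, -0.79 and -0.62. The collagen COL1A1, for example, was 18.4 ± 4.12 untreated, 224 ± 27.1 with DAC, 47.1 ± 2.59 with ATRA and 135 ± 17.7 with both.

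Large housekeeping and stress programs held no interaction that passed limma with the deposited scaling at an adjusted p under 0.01, whereas 1540 of the 9016 transcripts had an unadjusted p under 0.05. Of all 7622 symbols, 1.94% were negative and 0.866% positive, and at these shares a list of 12 to 53 genes holds few calls or none. On simulated interactions of log2 size 1 limma found 34%, so that 0 calls do not show that interactions were absent. Among cytosolic ribosomal proteins 0 of 53 were called, with a median of -0.04, and the same was true of 36 translation factors (0.01), 24 replication genes (-0.18), 21 mitotic genes (-0.11), 44 nuclear respiratory chain subunits (-0.01), 16 glycolytic enzymes (-0.19), 20 genes of the ATF4 response (-0.05), 18 heat shock and unfolded protein genes (0.07), 23 lysosomal genes (0.10) and 12 DNA methylation enzymes and readers (-0.04). Replication genes were nevertheless lower with DAC + ATRA in 18 of 24 cases, and ribosomal proteins in 22 of 53, past the threshold against untreated cells, where 14.7% of all symbols were lower. Under other scalings or tools some of these lists held calls. The ATF4 response had 2 positive calls under all 5 (with edgeR SESN2 and the cystine transporter SLC7A11) and 1 negative with DESeq2, replication genes 1 negative under all but TMM with limma (MCM2 with edgeR, adjusted p = 0.00939), and translation factors 1 positive with edgeR. Zinc finger ZNF genes had 1 limma call of 243 (ZNF792, -1.06) and 5 with DESeq2. Germline and cancer/testis genes, whose median rise with DAC was 4.24 on the log2 scale, had SPANXB1 as the only limma call of 14, and 0 calls with edgeR. With 5 other scalings or tools, chosen after seeing the data, the medians of the ribosomal, ZNF, respiratory chain, ATF4, DNA methylation, interferon signalling, germline and MHC class II lists changed sign, as did that of all symbols (-0.07 to 0.02). The medians of the hematopoietic factors (-0.47 to -0.30), the retinoid list (0.20 to 0.31) and the interferon-stimulated effectors (0.08 to 0.19) kept theirs.

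**Figure D5:**
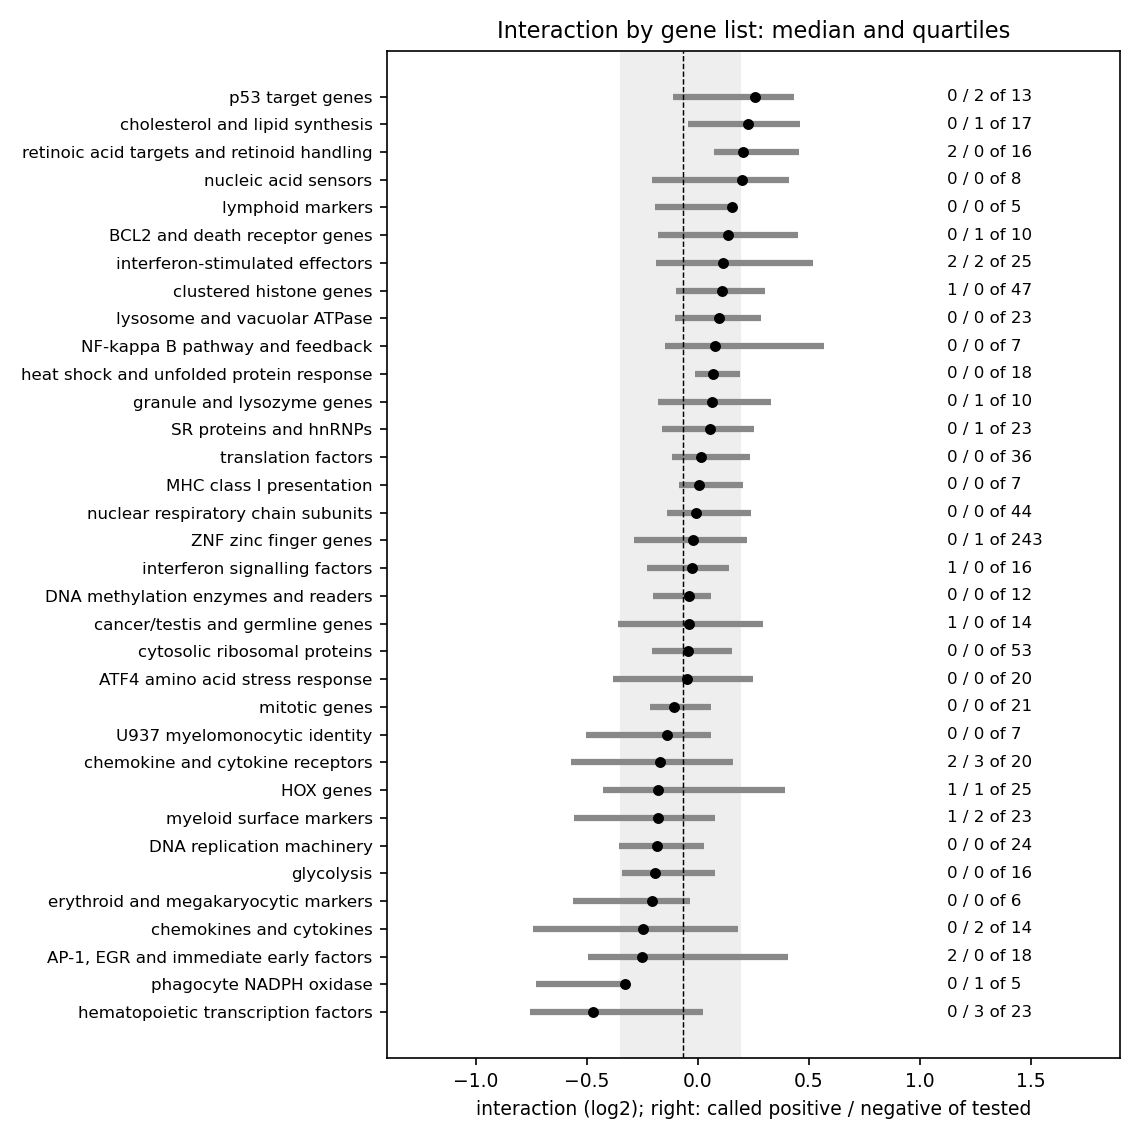
Dots are the median interaction (log2) of each list with at least 5 tested genes, grey bars its quartiles, the dashed line and shaded band the median and quartiles of all 7622 symbols, and the numbers at the right the positive and negative calls of the genes tested. Hematopoietic transcription factors are lowest at -0.47, with 3 negative calls of 23.

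Promoters with few CpGs were found in both classes of called genes. Of 7622 tested symbols 5853 had an entry among the RefSeq promoters, with a median of 26 CpGs per 300 bases. The median was 20.5 in 50 positive and 23 in 107 negative genes, and the lower quartiles were 6 and 8 against 18 in all tested genes. No test was applied to this difference.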

How the data were processed

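RNA-seq was measured in 12 U937 libraries, 3 per treatment. Per the labels and the processing notes of the submitters, total RNA was depleted of rRNA, sequenced paired-end, aligned with STAR to hg38, counted with HTSeq and scaled with DESeq2, with versions and strand setting not given in the sources used here. The deposited signal is a normalized read count per transcript, made by the authors as reads divided by a size factor. Whole reads were recovered for every library (tolerance 0.01 reads), at 8042435 to 10683593 per library. Replicate pairs differed by 3.39 to 15.9 in chi-square per degree of freedom, more than counting error alone gives, and most between ATRA libraries 8 and 9. No pair was a copy, and all libraries were kept. Intervals and limits of 3 reads cover counting error only.

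Because the deposited values are normalized, limma 3.58.1 (R 4.3.3, trend and robust) was run on log2(value + 1) over 9016 protein-coding transcripts (GENCODE 44, matched by identifier or, for 232, by symbol) with at least 10 in 3 libraries, out of 197782. All 4 groups entered the fit with no covariate, and calls needed a Benjamini-Hochberg adjusted p under 0.01. Fold changes are on the log2(value + 1) scale and understate changes of low genes. Named genes were the 12 largest interactions in each direction with a mean of at least 10 in every group, the 4 largest in each direction without that condition, up to 3 called members of each list and direction, HIC1, CYP26A1, GBP4 and LYZ, and all transcripts with opposite single-agent effects. Not every gene that this rule names is reported here. Other genes given with values were chosen after their values were seen. The members and lists were chosen with earlier results of these data known.

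Alternatives were edgeR 4.0.16 and DESeq2 1.42.0 on recovered reads, other scalings, pseudocounts, filters and moderation, and leaving out each library. On simulated interactions over 8816 transcripts, limma found 34% of 100 of log2 size 1 and 72.4% of 98 of size 2, with 4 false calls of 109. Promoter windows came from RefSeq (GRCh38.p14), and figures were drawn with matplotlib 3.10.9 in Python 3.11.15.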

Additional observations from a re-analysis of the deposited data

Results flagged for a closer look

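The effect of an agent differed with the presence of the other for 151 transcripts with a negative and 71 with a positive interaction, by the interaction test itself (limma, adjusted p under 0.01). In 10 transcripts the effect passed the threshold with opposite signs in the absence and presence of the other agent. For the effect of DAC, the interactions were -0.70 for XYLT1, -1.14 for USP18, -1.24 for VNN1, -0.84 for RORB, -1.0 for CRYBG3 and 4.47 for LBP. For the effect of ATRA, they were -3.04 for P2RY12, -2.06 for COL1A1, -1.54 for IQSEC3 and -1.38 for CAMK2N2.

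Outside the protein-coding set, 34 of 10357 tested transcripts had a positive and 42 a negative interaction. They included 16 positive and 22 negative of 2961 lncRNA transcripts.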

How the results depend on the processing

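No paired analysis was possible because the columns carry running numbers over all libraries and no replicate number. Against 151 negative and 71 positive calls, DESeq2 gave 249 negative, a pseudocount of 0.1 gave 30 positive, a pseudocount of 10 gave 144 positive, and at least 10 in every library gave 32 positive. A threshold of 0.05 gave 315 negative and 141 positive, and moderation without trend and robust fitting gave 71 and 47. Leaving out each library gave 90 to 388 negative and 50 to 95 positive, and the negative count moved past 1.5 times without ATRA library 9 (388) and DAC + ATRA libraries 10 (90) and 12 (98). The cause was not tested. Of the calls, edgeR shared 128 negative and 36 positive and DESeq2 137 and 35, and 0 transcripts were called in the opposite direction in any setting where transcripts could be matched.

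Over 68 named genes and 25 settings, 1495 of 1670 values kept their direction and side of the threshold, 168 lost the threshold, 1 gained it and 6 changed sign. All 6 were the HIC1 interaction (log2), which was not called: -0.14 with edgeR, -0.23 with DESeq2, -0.25 with a pseudocount of 0.1, and below 0 without untreated library 2 (-0.039), DAC library 5 (-0.02) or ATRA library 9 (-0.00129), in a range of -0.039 to 0.19 over the libraries left out. Depth limits genes at 3 reads or fewer in a group, whose fitted interaction moves with the pseudocount.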

Other observations

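Pairs of called genes that lay near each other were counted after the values were seen, with no test. Of 212 called genes with a position, 34 formed 24 pairs within 200000 bp, and 22 pairs had the same sign, of which 6 came from the 4 genes P2RY12, P2RY13, P2RY14 and IGSF10. With 148 negative and 66 positive symbols, many pairs share a sign whatever their position. EHD4 (1.07), 1880 bp from SPTBN5 (2.10), and FSTL3 (4.79), MISP (3.36) and PALM (5.57) on chromosome 19 were positive, and HMOX1 (-1.56) and RASD2 (-2.23) on chromosome 22 were negative. HOXB13 and HOXB5, and CD300LB (-1.54) and KIF19 (4.81), had opposite signs. The near-identical ALPP (5.43) and ALPPL2 (4.98) may share reads.

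Among noncoding transcripts, LINC00261 had means of 19.6 untreated, 1668 with DAC, 19.1 with ATRA and 218.5 with both (-2.87, SE 0.26, limma adjusted p = 1.3e-07). ITGB2-AS1, antisense to the integrin chain ITGB2, had 247, 2370, 772 and 2479 (-1.58, SE 0.16), and FIRRE, a nuclear lncRNA of the X chromosome, 81.7, 46.8, 55.6 and 88.5 (1.45, SE 0.24). Whether the counting used the strand that the libraries kept is not given in the sources used here, so that a share of reads from the partner gene was not tested.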
